A study of Mus musculus with 8 samples.

Results

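The early response transcription factors of the EGR, NR4A and KLF families, with the small early response gene Ier3, were followed across eosinophils that had been sorted from the bone marrow or the small intestine of mice. The members were 10 of the 38392 genes in the deposited expression table: Egr1, Egr2, Egr3, Nr4a1, Nr4a2, Nr4a3, Klf2, Klf4, Klf6 and Ier3. They were chosen by name, as the row of the table carrying each symbol, and each symbol had exactly 1 row. Eosinophils are granulocytes that mature in the bone marrow and settle in the intestinal lamina propria.

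All mice were wildtype, female and of strain C57/BL6, and no agent was given in either group. The labels state no age. The 4 bone marrow libraries came from cells sorted as CD11b+Ly6G-Ly6C-SiglecF+SSChi, and the 4 small intestine libraries from cells sorted as CD11b+MHC-II-SiglecF+SSChi. Per the study's methods, the intestinal tissue was stripped of epithelium, digested warm with collagenase and enriched on CD11b beads before sorting, whereas the bone marrow was flushed and not digested. Tissue and handling therefore changed together and cannot be told apart in these samples. The column names gave the tissue of each library but not which mouse it came from, so libraries are called BM_1, BM_3, BM_4, BM_5, SI_6, SI_7, SI_10 and SI_11. Each held between 11508002 and 21289164 assigned reads.

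Early response genes are switched on within minutes of a stimulus, without new protein synthesis, and their transcripts are short-lived. EGR proteins are zinc finger factors induced through serum response factor and its partners. NR4A proteins are orphan nuclear receptors that act without a known physiological ligand and are controlled mainly through how much of them is made. KLF proteins bind GC-rich promoters, and in leukocytes KLF2 is best known for maintaining quiescence and trafficking receptors, while KLF4 and KLF6 act in myeloid differentiation and inflammatory gene control. Ier3 encodes a small protein that modulates survival and NF-κB signalling. The same genes are also widely known to respond to tissue dissociation.

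Proximal promoters of 5 members are shown, those of the 3 NR4A genes because this family includes the largest differences between tissues and those of Egr2 and Klf4 for their contrasting makeup. RefSeq windows of 250 bases before a start site on GRCm38.p6 were held for 8 members (Egr2 with 5 alternative starts), and none was printed for Egr1 or Egr3. Bases inside an exon annotated by GENCODE release M21 were left out, which shortened the Nr4a3 window. Capitals mark matches on either strand to the cAMP half-site TGACG, which reads CGTCA on the opposite strand, the EGR site GCGNGGGCG and the serum response factor motif known as the CArG box. A full cAMP response element, TGACGTCA, would count as 2 half-sites, and none of these windows held one. The sequences run 5′ to 3′ along the gene's strand.
Nr4a1, chr15:101266596-101266845, plus strand: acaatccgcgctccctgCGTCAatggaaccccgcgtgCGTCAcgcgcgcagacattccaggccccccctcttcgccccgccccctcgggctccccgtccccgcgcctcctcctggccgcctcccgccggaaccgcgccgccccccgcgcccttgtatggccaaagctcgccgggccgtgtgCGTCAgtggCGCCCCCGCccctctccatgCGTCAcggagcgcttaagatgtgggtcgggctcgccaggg
Nr4a2, chr2:57124004-57124253, minus strand: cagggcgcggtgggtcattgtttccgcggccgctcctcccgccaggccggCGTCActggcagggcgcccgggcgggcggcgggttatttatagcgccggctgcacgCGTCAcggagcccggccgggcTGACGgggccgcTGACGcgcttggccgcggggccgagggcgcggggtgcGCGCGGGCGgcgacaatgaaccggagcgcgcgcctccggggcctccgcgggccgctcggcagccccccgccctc
Nr4a3, chr4:48045055-48045152, plus strand: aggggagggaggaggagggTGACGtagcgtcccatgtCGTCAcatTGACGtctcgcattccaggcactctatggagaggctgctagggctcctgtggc
Egr2, chr10:67537619-67537868, plus strand: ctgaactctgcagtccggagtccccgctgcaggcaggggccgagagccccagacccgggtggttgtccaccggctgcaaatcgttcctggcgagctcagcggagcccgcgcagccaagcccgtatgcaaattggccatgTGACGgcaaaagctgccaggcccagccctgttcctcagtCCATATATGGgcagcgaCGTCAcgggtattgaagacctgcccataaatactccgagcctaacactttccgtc
Klf4, chr4:55532476-55532725, minus strand: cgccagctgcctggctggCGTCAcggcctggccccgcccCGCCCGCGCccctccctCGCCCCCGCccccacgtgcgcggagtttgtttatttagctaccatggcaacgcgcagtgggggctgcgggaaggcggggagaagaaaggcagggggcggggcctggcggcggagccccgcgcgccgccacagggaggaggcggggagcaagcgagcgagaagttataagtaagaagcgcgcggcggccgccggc

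The Nr4a1, Nr4a2 and Nr4a3 windows each held 4 half-sites over their whole 250 bases, of which 3 lay in the shortened Nr4a3 stretch. At least 1 half-site was present in 17.8% of all 32851 mouse windows of this length, and at least 4 in 0.137%. The Egr2 window shown held 1 half-site on each side of a CArG box starting 72 bases before the start site, a motif found in 1.47% of windows. Of the other Egr2 windows, that from chr10:67535249 held no match, and that from chr10:67537316 held another CArG box without a half-site. The remaining Egr2 windows overlapped the one shown and held the same matches. Klf2 and Klf4 held 1 half-site each, and the Klf6 and Ier3 windows held no match to any motif searched. The EGR site, found in 4.7% of windows, was matched once in Nr4a1, Nr4a2 and Klf2 and at 2 positions in Klf4. The NR4A monomer site AAAGGTCA, found in 1.34% of windows, was matched in no member. These matches describe letters in the windows and no binding was measured.

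All 10 members were higher in the small intestine (limma on the deposited log2-scale values, Benjamini-Hochberg adjusted p under 0.05 across all 38392 genes). By the same test 22.0% of all genes were called higher and 12.9% lower, that is 8465 and 4937 genes. With each library centred on the median of all its genes these became 4285 and 10216, and with quantile normalisation 5954 and 7032. Of all genes, 22084 had a mean under 10 normalised counts. When only the 16308 genes at or above that mean were fitted, 6533 were called higher and 5399 lower. In all 10 members every small intestine library lay above every bone marrow library. That arrangement was found in 20.3% of all genes, those under the mean of 10 included. Differences ranged from 1.24 log2 units for Ier3 to 8.74 for Nr4a3, against a median of 0.37 over all genes. The centring on all genes moved that median to -0.53, and the members' differences then ranged from 0.34 to 7.84. In bulk samples, a lower level could be fewer expressing cells or less RNA per cell, and these cannot be told apart.

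**Figure D1:**
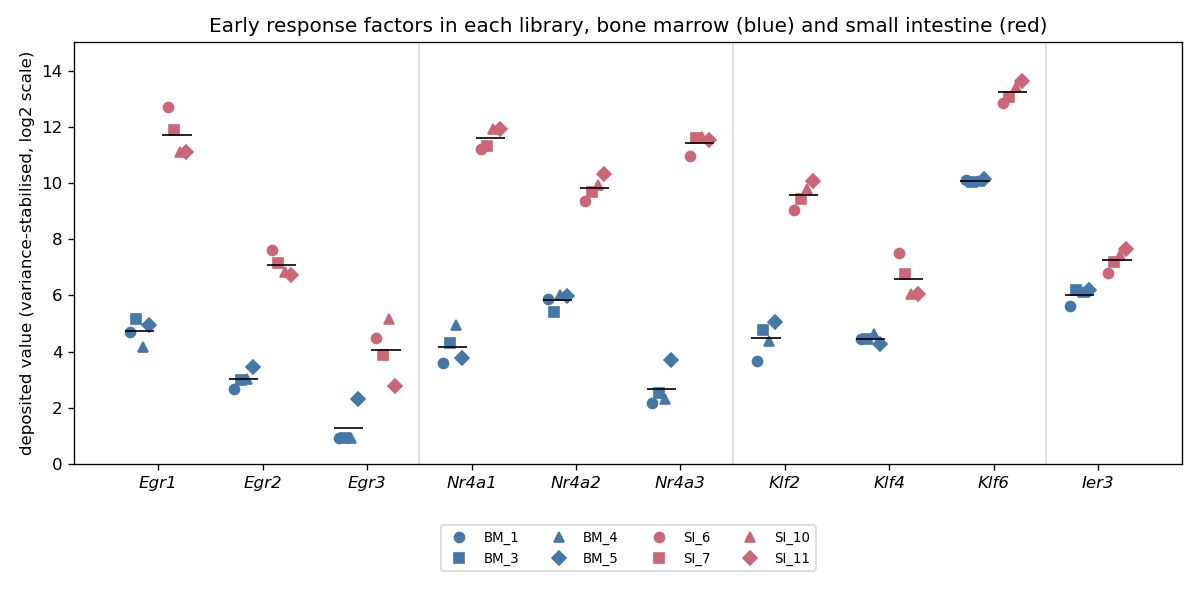
Deposited variance-stabilised values (log2 scale) of the 10 members in each of the 8 libraries, with bone marrow in blue, small intestine in red, 1 marker shape per library and a bar at each tissue mean. The tissues do not overlap for any member, and the separation is widest for Nr4a3 and narrowest for Egr3 and Ier3.

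The libraries labelled bone marrow eosinophils differed from the intestinal ones in cell markers as well as in the early response factors. Of 6 eosinophil genes, Ccr3, the eotaxin receptor, was at 45.9 to 102 normalised counts in bone marrow and 13285 to 19653 in the small intestine, and Il5ra, the interleukin-5 receptor, at 4.78 to 17.7 and 894 to 1415. Siglecf, Ccr3, Il5ra and Gata1 were called higher in the small intestine and the granule genes Epx and Prg2 lower. Of all genes, 22.0% were called higher and 12.9% lower. All 11 neutrophil precursor genes were called lower in the small intestine, and together they took 3.69% to 4.37% of bone marrow reads and 0.00455% to 0.00649% of intestinal reads. The most abundant of them, Mpo, was at 127019 to 174314 normalised counts in bone marrow. The part of these other transcripts in the differences below was not tested.

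Nr4a1 and Nr4a3 were low in bone marrow and rose the most of the members. Nr4a3 (ENSMUSG00000028341, chr4:48045153-48086447) was at 1.53, 2.61, 1.91 and 9.3 normalised counts in BM_1, BM_3, BM_4 and BM_5, and at 1980, 3070, 3140 and 2958 in SI_6, SI_7, SI_10 and SI_11. The bone marrow values rested on 2, 4, 2 and 10 reads, and SI_6 was the lowest of the intestinal libraries. Its difference was 8.74 ± 0.36 log2 units (SE, n = 4 per tissue, limma adjusted p = 1.21e-06), and it ranked 29th among all genes. Nr4a1 (ENSMUSG00000023034, chr15:101254269-101274795) was at 8.43, 16.3, 26.8 and 10.2 in the same bone marrow libraries and at 2353, 2572, 3827 and 3857 in the intestinal ones. SI_10 and SI_11 were close to each other and above SI_6 and SI_7. Nr4a1 rose by 7.44 ± 0.34 log2 units (SE, limma adjusted p = 2.01e-06) and ranked 108th.

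Nr4a2, the family member best known from dopaminergic neurons, started from a higher level and rose less. It (ENSMUSG00000026826, chr2:57106830-57124003) was at 55.2, 38.5, 61.2 and 58.6 normalised counts in bone marrow and at 648, 817, 975 and 1258 in the small intestine. The lowest intestinal library was again SI_6 and the highest SI_11. The difference was 4.0 ± 0.26 log2 units (SE, limma adjusted p = 1.17e-05).

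Among the retinoid X receptors, which pair with Nr4a1 and Nr4a2, Rxra rose and Rxrb did not pass the test. Rxra averaged 34.2 ± 4.52 normalised counts in bone marrow and 936 ± 133 in the small intestine (SD, n = 4), a difference of 4.63 ± 0.20 log2 units (SE, limma adjusted p = 1.44e-06). Rxrb differed by -0.07 ± 0.20 log2 units (SE, limma adjusted p = 0.814). Rxrg was called higher with no read in any bone marrow library and 0 to 8.32 normalised counts in the small intestine. The list median was 1.74 log2 units. Rxrg lost its call in several alternatives, which left Rxra as the only RXR gene called.

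Egr1 had the highest intestinal mean of the EGR genes. Egr1 (ENSMUSG00000038418, on chromosome 18) was at 22.2, 32, 14.4 and 27 normalised counts in BM_1, BM_3, BM_4 and BM_5, and at 6727, 3803, 2187 and 2201 in SI_6, SI_7, SI_10 and SI_11. SI_6 stood at 2.46 times the mean of the other intestinal libraries, in the opposite direction to the NR4A genes. Egr1 rose by 6.96 ± 0.41 log2 units (SE, limma adjusted p = 6.27e-06). Egr2 (ENSMUSG00000037868, chr10:67535475-67542188), known from myelination and lymphocyte anergy, was at 3.06, 4.56, 4.78 and 7.44 in bone marrow and at 190, 139, 110 and 101 in the small intestine. The order of its intestinal libraries began with SI_6 and SI_7 as for Egr1. Its difference was 4.05 ± 0.27 log2 units (SE, limma adjusted p = 1.23e-05).

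Egr3 was the scarcest member. Egr3 (ENSMUSG00000033730, chr14:70077203-70082614) had 0, 0, 0 and 2 reads in the bone marrow libraries and 17, 8, 29 and 3 in SI_6, SI_7, SI_10 and SI_11. The intestinal values spanned an 8.92-fold range in normalised counts, and the lowest of them was close to BM_5. Its difference was 2.79 ± 0.54 log2 units (SE, limma adjusted p = 0.00379), and the call was lost without SI_6 and SI_7 (adjusted p = 0.0639 by the same test). From the summed reads, 57 against 2, the ratio was 41.6 with an exact binomial 95% interval of 11 to 352, which covers counting error only. Egr3 was the member whose mean lay under 10 normalised counts, as did the means of 22084 genes.

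Of the genes that restrain EGR proteins, both NAB corepressors rose by less than the EGR genes. Nab1 averaged 808 ± 55.7 normalised counts in bone marrow and 2127 ± 243 in the small intestine (SD, n = 4), a difference of 1.39 ± 0.18 log2 units (SE, limma adjusted p = 0.000456). Nab2, itself known as an EGR target, differed by 1.04 ± 0.24 log2 units (SE, limma adjusted p = 0.00859). Both calls were lost when libraries were centred on the median of all genes and when differences were tested against 1 log2 unit.

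Klf6 was the most abundant member in both tissues. It (ENSMUSG00000000078, chr13:5861482-5870394) was at 1101, 1036, 1060 and 1115 normalised counts in bone marrow and at 7299, 8623, 10960 and 12588 in the small intestine. The bone marrow libraries lay within a 1.08-fold range, the tightest of any member in that tissue, while among the intestinal ones SI_6 was the lowest and SI_11 the highest. The difference was 3.16 ± 0.22 log2 units (SE, limma adjusted p = 1.5e-05).

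Klf2 rose further from a low base. It (ENSMUSG00000055148, chr8:72319033-72321656) was at 9.19, 23.5, 17.2 and 29.7 in bone marrow and at 518, 689, 874 and 1072 in the small intestine. Its intestinal libraries stood in the same order as those of Klf6, with SI_6 lowest. The difference was 5.11 ± 0.36 log2 units (SE, limma adjusted p = 1.53e-05).

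Klf4 moved less and spread widely in the small intestine. It (ENSMUSG00000003032, chr4:55527143-55532466) was at 18.4, 18.3, 21.1 and 15.8 in bone marrow and at 177, 104, 62.4 and 61.6 in the small intestine. SI_6 was at 2.33 times the mean of the other intestinal libraries, as it was high for Egr1. The difference was 2.13 ± 0.34 log2 units (SE, limma adjusted p = 0.00139), and 1.58 without SI_6 and SI_7 (adjusted p = 0.000905 by the same test).

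Among 14 other KLF genes, 7 were called higher and none lower. Over all genes 22.0% were called higher and 12.9% lower, and 6533 and 5399 of the 16308 with a mean of at least 10. The list median was 0.87 log2 units. Klf7 rose most, by 3.15 ± 0.18 log2 units (SE, limma adjusted p = 6.29e-06), from 591 ± 28.5 to 5325 ± 721 normalised counts (SD, n = 4). Klf3, a repressor of the family with the highest mean in the list, rose by 2.60 ± 0.22 log2 units (SE, limma adjusted p = 4.19e-05), from 1153 ± 39.1 to 7164 ± 1778. Klf5, known for its role in intestinal epithelium, averaged 514 ± 64.0 in bone marrow and 856 ± 629 in the small intestine and did not pass the test (0.47 ± 0.45 log2 units, limma adjusted p = 0.47). It was at 1760 in SI_6 and 350 in SI_10. Klf5 was singled out after its values were seen. With quantile normalisation 4 of the 14 were called higher and 2 lower, and with centring on the median of all genes 3 and 2.

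Of 4 genes known to respond to KLF2 in T cells or endothelium, Nos3 and S1pr1 were called higher, and Thbd did not pass the test. The share called higher over all genes was 22.0%. S1pr1, the receptor that draws lymphocytes out of tissue, was at 8.43 to 31.6 in bone marrow and 51.3 to 64.4 in the small intestine. Nos3, the endothelial nitric oxide synthase, had at most 3.72 in bone marrow and 3.56 to 29.1 in the small intestine. The endothelial markers Cdh5, Kdr, Tek, Vwf, Emcn and Pecam1 were also called higher in the small intestine, and the part of endothelial transcripts in the Nos3 and S1pr1 values was not tested. Pecam1 is also made by leukocytes.

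Ier3 showed the smallest difference of the 10. It (ENSMUSG00000003541, chr17:35821684-35822923) was at 46.0, 68.5, 65.1 and 68.8 normalised counts in bone marrow and at 107, 141, 168 and 196 in the small intestine. BM_1 was below the other bone marrow libraries, and SI_6 was again the lowest in the small intestine. The difference was 1.24 ± 0.25 log2 units (SE, limma adjusted p = 0.00456). With each library centred on the median of all genes it was 0.34 and not called (limma adjusted p = 0.588), and tested against 1 log2 unit it was not called either (limma adjusted p = 0.691).

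**Figure D2:**
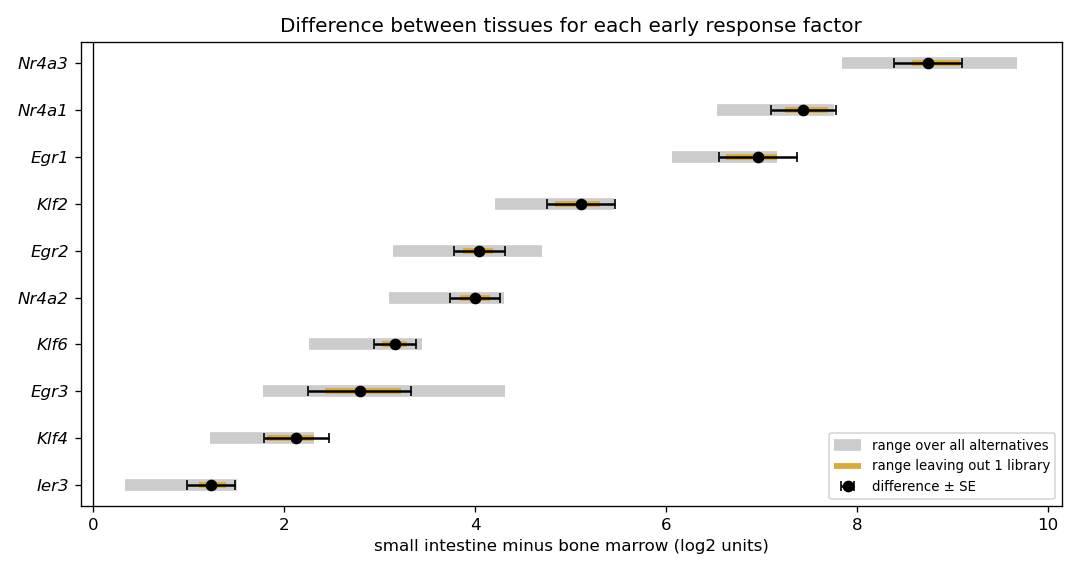
Small intestine minus bone marrow (log2 units) for each member, with the standard error as whiskers, the range over fits that leave out 1 library in yellow and the range over all alternatives in grey. Every range lies above 0, and that of Ier3 comes closest, at 0.34.

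To compare levels between genes, normalised counts were divided by the length of each gene's merged exons in kb. In the small intestine the order was Klf6 (2247 ± 538 normalised reads per kb, SD, n = 4), Nr4a1 (898 ± 228), Egr1 (832 ± 477), Nr4a3 (466 ± 90.7), Klf2 (427 ± 129), Nr4a2 (228 ± 63.8), Ier3 (135 ± 33.5), Egr2 (39.7 ± 11.8), Klf4 (33.2 ± 17.8) and Egr3 (3.68 ± 2.73). Klf6 lay above all Nr4a1 libraries, Ier3 above all Egr2 libraries and Klf4 above all Egr3 libraries, whereas every other pair of neighbours overlapped.

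In bone marrow the order per kb was different. Klf6 (246 ± 8.24) and Ier3 (54.9 ± 9.61) led without overlapping a neighbour, followed by Nr4a2 (13.1 ± 2.52), Klf2 (10.8 ± 4.76), Klf4 (6.03 ± 0.703), Egr1 (5.32 ± 1.67) and Nr4a1 (4.40 ± 2.36), which overlapped one after another. Egr2 (1.46 ± 0.535), Nr4a3 (0.641 ± 0.612) and Egr3 (0.106 ± 0.211) closed the order, and Egr2 lay below all Nr4a1 libraries. By level per kb in the small intestine Klf6 ranked 211th of all genes and Nr4a1 621st, against 2075th and 15434th in bone marrow.

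**Figure D3:**
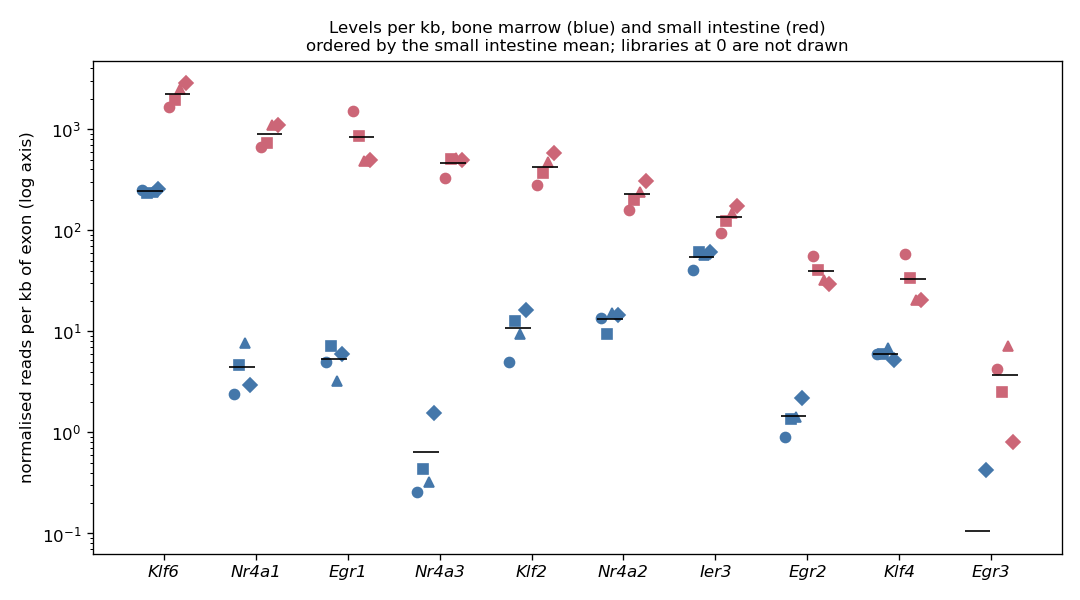
Normalised reads per kb of exon on a log axis for each member and library, ordered by the small intestine mean, with a bar at each tissue mean and the marker shapes of the plot of deposited values. Nr4a1, Egr1 and Nr4a3 follow Klf6 in the small intestine but sit among the lowest in bone marrow, where the 3 Egr3 libraries at 0 are not drawn.

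Members of the same family did not all move by the same amount. For each of 9 pairs of members of the same family, the log2 ratio within a library was compared between tissues by an exact 2-sided permutation test over all 70 assignments of the 8 libraries, whose smallest possible p is 0.0286, with Benjamini-Hochberg adjustment over the 9 pairs. These ratios are of deposited values, not corrected for gene length, so their shift between tissues is the quantity compared, and levels between genes are given per kb above. Of these, 6 reached that smallest value (adjusted p = 0.0429 by the exact test).

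The NR4A family turned over. The ratio of Nr4a1 to Nr4a2 was -1.66 ± 0.67 log2 units in bone marrow and 1.77 ± 0.17 in the small intestine (SD, n = 4). That of Nr4a2 to Nr4a3 was 3.14 ± 0.69 log2 units in bone marrow and -1.61 ± 0.28 in the small intestine. Both had 1 sign in all libraries of a tissue, and the levels per kb stood in the same order. The intestinal ratios were held within a narrower range than those in bone marrow, where Nr4a1 and Nr4a3 rested on few reads. Nr4a1 against Nr4a3 was 1.47 ± 1.04 in bone marrow and 0.17 ± 0.29 in the small intestine, a shift of -1.31 that did not pass the exact permutation test (adjusted p = 0.129, n = 4 per tissue).

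In the EGR family the ratio of Egr1 to Egr2 went from 1.71 ± 0.48 to 4.63 ± 0.38 log2 units (SD, n = 4). That of Egr1 to Egr3 went from 3.47 ± 0.69 to 7.64 ± 1.13, but 3 of the 4 bone marrow values for Egr3 were at the floor of the transformation, which sets their ratio. Its shift was 4.17 log2 units on deposited values, and 3.72 or 5.11 when 1 or 5 was added to the normalised counts before taking logs. The shift passed the exact permutation test (adjusted p = 0.0429), but that result and its size both rest on bone marrow values at the floor. In normalised counts the ratio of tissue means for Egr1, 156, lay inside the interval of 11 to 352 for Egr3. That interval covers counting error only and does not test the pair. Egr2 against Egr3 shifted by 1.25 log2 units (exact permutation adjusted p = 0.129), with SI_10 inside the bone marrow range.

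In the KLF family Klf2 gained on both others. The ratio of Klf2 to Klf4 went from 0.01 ± 0.68 log2 units in bone marrow to 3.0 ± 1.14 in the small intestine (SD, n = 4). That of Klf2 to Klf6 went from -5.61 ± 0.61 to -3.66 ± 0.11. Klf4 against Klf6 was -5.62 ± 0.17 in bone marrow and -6.66 ± 1.04 in the small intestine, where SI_6 at -5.34 lay above all bone marrow libraries and the other 3 below them (exact permutation adjusted p = 0.143).

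**Figure D4:**
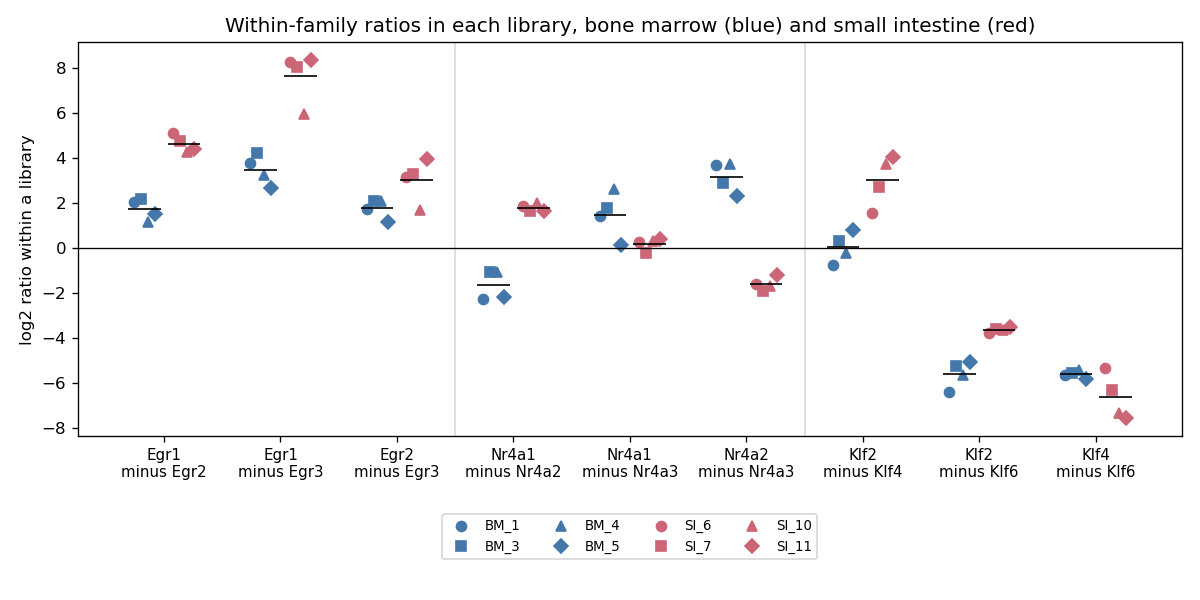
Log2 ratio of 2 members of the same family within each library, bone marrow in blue and small intestine in red, with a bar at each tissue mean. Both Nr4a2 pairs change sign between tissues, and the Klf4 and Klf6 pair overlaps because of SI_6.

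Within the small intestine the members split by library. Egr1, Egr2 and Klf4 were highest in SI_6, and Nr4a1, Nr4a2, Nr4a3, Klf2, Klf6 and Ier3 were lowest there. Among 16308 genes whose mean reached 10 normalised counts, 33.8% were highest and 32.7% lowest in SI_6. SI_6 over the mean of the other 3 libraries was 2.46 for Egr1, 2.33 for Klf4 and 1.63 for Egr2, and 0.59 to 0.688 for the 6 members lowest there. Egr3 was highest in SI_10 and lowest in SI_11.

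Markers of other cells moved with this split. All 10 epithelial markers were highest in SI_6, and their summed normalised count was 34670 in SI_6, 15848 in SI_7, 5109 in SI_10 and 5676 in SI_11, against 67.0 to 126 in bone marrow. Muc2, the goblet cell mucin, was the most abundant of them, at 16356 in SI_6 and 2313 in SI_10, and Epcam was at 2787 and 396. All 5 fibroblast markers whose mean reached 10 were also highest in SI_6, as were 5 of 7 macrophage markers and 4 of 7 endothelial ones, with the other 3 endothelial markers lowest there. Of 6 heat shock genes whose mean reached 10, 5 were highest in SI_6 and none was lowest. In contrast, 5 of 6 eosinophil genes were lowest there. Without SI_6 and SI_7 the differences between tissues were 6.36 for Egr1 and 3.74 for Egr2, and 7.76, 4.30 and 8.90 for Nr4a1, Nr4a2 and Nr4a3, each still called. The part of these transcripts, heat shock genes included, in the Egr1, Egr2 and Klf4 values was not tested.

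**Figure D5:**
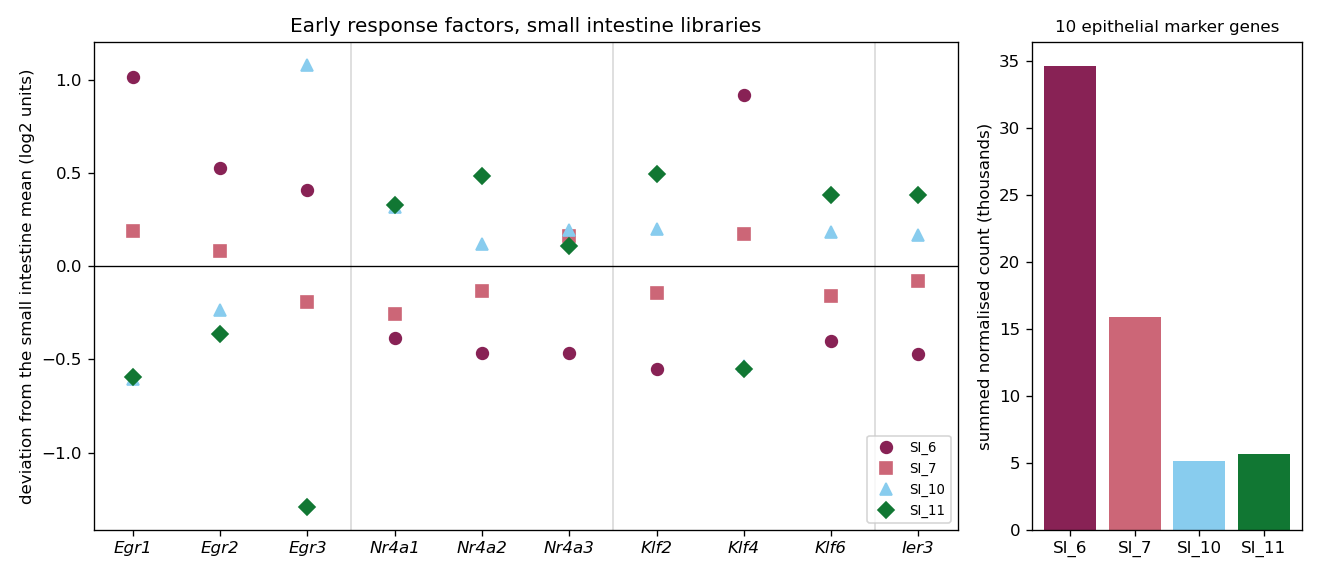
Left, deviation of each member from its mean over the 4 small intestine libraries (log2 units), 1 colour and marker per library. Right, summed normalised count of 10 epithelial marker genes in the same libraries, which is highest in SI_6, where Egr1, Egr2 and Klf4 are also highest.

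The genes nearest to each leading member were sought over the 8 centred library profiles. The profiles span both tissues, so genes with a like tissue difference are near, and members with unlike differences get unlike neighbours. By Euclidean distance over the 8 libraries, the genes nearest to Egr1 were Gsdmc2 (0.98 log2 units), the epithelial keratin Krt8 (1.09) and the mucin gene Muc6 (1.18). Krt8 was at 2718 in SI_6 and 433 in SI_10, whereas Gsdmc2 was at 357 in SI_6 and 359 in SI_7. Those nearest to Nr4a1 were Pmaip1 (0.62), which encodes a pro-apoptotic protein, Ifitm1 (0.89) and Gm19557 (0.91). Nearest to Klf6 were Laptm4a, Vopp1 and Chst15, all at 0.30, and nearest to Ier3 were Clip1 (0.34), Gm38014 (0.37) and Gm37726 (0.38).

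The remaining early response genes moved mostly with the members. Of 30 genes, 25 were called higher and 1 lower, with a list median of 4.50 log2 units. The AP-1 gene Fosb rose most, by 8.89 ± 0.26 log2 units (SE, limma adjusted p = 2.87e-07), from 12.3 ± 5.31 to 7276 ± 934 normalised counts (SD, n = 4). Btg1, an antiproliferative gene with the highest mean in the list, rose from 542 ± 62.8 to 34123 ± 4608. Myc was the gene called lower, from 2647 ± 251 to 645 ± 120. Of the 27 whose mean reached 10 normalised counts, 17 were lowest in SI_6 and 4 highest.

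Kinases and factors that act upstream of these genes changed by smaller amounts. Of 20, 11 were called higher and 3 lower, with a list median of 0.86 log2 units. With each library centred on the median of all genes the counts turned to 2 higher and 5 lower. Crem, a cAMP-responsive factor with activator and repressor forms, rose most, by 4.97 ± 0.32 log2 units (SE, limma adjusted p = 1.13e-05), from 46.0 ± 9.24 to 1634 ± 618 normalised counts (SD, n = 4). Mef2c fell most, with a difference of -2.44 ± 0.41 log2 units (SE, limma adjusted p = 0.00185). Creb1 was also called lower. Braf, the most abundant, rose from 2824 ± 206 to 7718 ± 1311. Srf, which binds the CArG box, differed by -0.34 ± 0.21 log2 units and did not pass the test (limma adjusted p = 0.235).

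Heat shock genes, which are known to respond to warm digestion, were split. Of 7, 3 were called higher and 3 lower, with a list median of -0.37 log2 units. Hspa1a rose most, from 0 to 12.1 normalised counts in bone marrow to 67.8 to 122 in the small intestine, and Hspb1 and Hspa1b were the other 2 that rose. Hspb1 had no read in any bone marrow library, 5.55 to 15.3 normalised counts in the small intestine and a mean under 10. Hspa8, the constitutive member with the highest mean, fell from 11017 ± 1320 to 4056 ± 612 (SD, n = 4), with Dnajb1 and Hsp90aa1 also lower. Their part in the early response differences was not tested.

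Other cell types were also represented unevenly. Among markers called higher in the small intestine were all 10 epithelial genes, 6 of 7 endothelial, 5 of 6 fibroblast, 6 of 7 macrophage and 3 of 5 T cell genes. The share called higher was 22.0% over all genes. The plasma cell gene Jchain rose from 14.7 ± 10.1 to 1471 ± 965 normalised counts (SD, n = 4). All 4 erythroid genes and the mast cell genes Kit and Cpa3 were called lower, against 12.9% of all genes. In the small intestine these lists took 0.033% to 0.223% of reads for epithelial genes and 0.0482% to 0.0574% for endothelial genes. Macrophage genes took 0.0132% to 0.0179% and fibroblast genes 0.000895% to 0.00466%, against 0.11% to 0.147% for eosinophil genes. Pecam1, which leukocytes also make, held most of the endothelial share, at 6979 to 9512 of a summed 7486 to 9875 normalised counts.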

How the data were processed

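RNA was amplified with the NuGEN Ovation RNA-Seq v2 system and sequenced single-end. Per the labels and the study's methods, the authors aligned reads to GRCm38 with Ensembl release 86 annotation and used DESeq2 in R 4.0.3. The aligner version, strand setting and treatment of multi-mapping reads were not given in the sources used here, and no other annotated gene overlaps a member in GENCODE release M21. The deposited values are variance-stabilised expression on a log2 scale. The transformation was inverted, which returned whole reads for 100% of values within 0.05 of a read, and normalised counts are those reads divided by the size factor.

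Limma 3.58.1 in R 4.3.3 was fitted to the deposited log2 values of all 38392 genes, with no filter on low values, an adjusted p threshold of 0.05 and 4 libraries per tissue. It replaced a count model because the table holds no raw counts, and was tested on simulated data. There, false calls lay in genes of few reads, and their share was checked only among genes with a mean of at least 10. That check did not cover genes under that mean, among them Egr3, Rxrg and Hspb1. The labels give 1 mouse number per sample but the columns cannot be tied to it, so p-values measure the spread between libraries. Alternatives left out each library, changed the prior, filter (mean of at least 10), pseudocount (1 or 5), scaling or null (1 log2 unit), or ran voom on the recovered reads. Leaving out SI_6 and SI_7 together was chosen after the data were seen. Gene identifiers were matched to GENCODE release M21 (38392 of 38392). Of the genes listed, 4 were found under newer symbols and 1, Egr4, was not among the rows used. The named genes were the 10 members, the largest rise, largest fall and highest mean of each list, and the 3 nearest profiles to the leading member of each family. Some genes that this rule names are not reported here. Members and lists were chosen with earlier results of these data known. Analyses used Python 3.11.15 with scipy 1.17.1.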

Additional observations from a re-analysis of the deposited data

Results flagged for a closer look

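Within each tissue, the highest and the lowest library were compared with the nearest other one for the members, the within-family ratios and the genes named by rule, as a share of the range of the 4 values (Dixon's ratio, against its 95% critical value). Of 118 such groups 6 exceeded it, and chance flags about 1 in 20. Egr3 was at its floor in 3 bone marrow libraries, so BM_5, with 2 reads, gave a ratio of 1. Nr4a3 was low in SI_6 among the small intestine libraries (0.871), where it stood at 1980 against 2958 to 3140 normalised counts. Ier3 was low in BM_1 (0.86), at 46.0 against 65.1 to 68.8. The Egr1 to Egr3 ratio was low in SI_10 (0.869), at 5.95 against 8.02 to 8.33 log2 units, in the library with the most Egr3 reads. Braf was low in SI_6 (0.832) and Gm38014 low in BM_1 (0.927).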

How the results depend on the processing

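All 10 members stayed higher in the small intestine in up to 18 alternatives each, and 8 were called in all 18. The exceptions were Egr3 without SI_6 and SI_7 (2.69, not called), and Ier3 centred on the median of all genes (0.34) or tested against 1 log2 unit (1.24, not called). Egr3 had a mean under 10 and had no value under that filter. Of the within-family shifts only Egr2 against Egr3 changed its call, with a pseudocount of 5 (2.01, exact permutation adjusted p = 0.0367), and leaving out 1 library moved none by more than 1 SD. Per kb, levels scaled by total reads moved by more than 1 SD for Klf4 and Klf6 in bone marrow, to 6.83 and 279. No paired analysis was run, because the labels give the small intestine samples other mouse numbers than the bone marrow samples.

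Calls in the lists moved more. Leaving out each library in turn gave 1 to 2 RXR genes higher, 0 to 1 other KLF genes lower, 1 to 2 KLF2-responsive genes higher, 1 to 3 T cell markers higher and 1 to 2 mast cell markers lower. Without SI_6 and SI_7 there were 1 RXR gene, 0 KLF2-responsive genes, 2 fibroblast markers and 1 T cell marker higher, and 1 other KLF gene and 1 mast cell marker lower. Centring on the median of all genes gave 0 NAB genes, 1 RXR gene, 3 other KLF genes, 1 KLF2-responsive gene, 2 upstream genes and 3 macrophage markers higher, and 2 other KLF genes, 5 upstream genes, 1 endothelial marker, 1 T cell marker and 2 B and plasma cell markers lower. Quantile normalisation gave 1 RXR gene, 4 other KLF genes and 1 T cell marker higher, and 2 other KLF genes, 1 endothelial marker and 2 B and plasma cell markers lower. Against 1 log2 unit there were 0 NAB genes, 1 RXR gene, 2 other KLF genes, 0 KLF2-responsive genes, 4 upstream genes, 3 macrophage markers and 1 T cell marker higher, and 1 upstream gene, 0 heat shock genes, 0 B and plasma cell markers and 0 mast cell markers lower. The filter on a mean of at least 10 gave 1 RXR gene higher and 1 other KLF gene lower, and the pseudocount of 5 and centring on genes with such a mean also gave 1 other KLF gene lower. Over all genes the test against 1 log2 unit called 3460 higher and 1616 lower.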
